A study of Mus musculus with 5 samples.

Results

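The 10 genes described here encode the Id proteins (Id1, Id2, Id3 and Id4), the Notch-linked repressors Hes1, Hey1, Hey2 and Heyl, and the clock-linked repressors Bhlhe40 and Bhlhe41. They were taken by gene name from the deposited SLAMseq tables of cultured cardiac fibroblasts (CF), which hold 20365 gene names. All 10 names were found, on 16 intervals, and each gene was represented by the interval with the highest mean CPM (read counts scaled to the size of the library) in the labeled libraries. CF came from hearts of healthy adult male C57Bl/6J wildtype mice, 10 to 12 weeks old by the study's methods, and had grown to confluency in culture. In the 3 labeled libraries the cells had received 0.1 mM S4U (4-thiouridine, a uridine analog) for 12 h, and in the 2 unlabeled libraries they had been kept for 12 h without it. RNA of all 5 libraries was alkylated, and S4U built into RNA is then sequenced as C where T is expected. The T>C conversion rate is the fraction of covered T positions read as C, and it rises with the share of a transcript made during labeling.

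Basic helix-loop-helix (bHLH) factors bind E-box sites in DNA as dimers. Id proteins have the dimerization domain but no basic, DNA-binding region, so that they hold E proteins and their partners away from DNA, and their genes are textbook targets of BMP signaling through Smad1 and Smad5. Hes and Hey proteins bind DNA and repress it, often with TLE corepressors, and their genes are known targets of Notch through Rbpj. Bhlhe40 and Bhlhe41 are repressors of E-box genes that feed back on the circadian clock. Many of these transcripts are known in other cells as short-lived.

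Depth differed between libraries. The reads counted on 1 interval per gene came to 1576048 in labeled replicate 1, 1194971 in replicate 2 and 506045 in replicate 3, while the unlabeled libraries had 1842706 and 995960. The deposited CPM is scaled to a larger number of reads, 11942554, 14096370 and 14616278 in the labeled libraries, and of the labeled libraries it was lowest in replicate 3 for each of the 10 members. Levels are therefore also given as CPM relative to the counted reads, and unless the deposited CPM is named, levels between genes are compared on this scale. In 3′ end libraries a transcript gives a read at its end whatever its length, so values were not divided by length. Over all intervals the T>C rate was 0.0353, 0.0358 and 0.0356 in the labeled libraries and 0.00111 and 0.000652 in the unlabeled ones. Reads of all 9 fibroblast markers were present, with a summed level of 30840 to 33736 in labeled and 23801 to 27622 in unlabeled libraries. The 8 endothelial markers, listed because endothelial cells also express several members, summed to 145 to 256 and 179 to 263, with Vwf at 0 in the labeled libraries. The 8 immune markers summed to 49.5 to 111 and 44.0 to 112. The 8 mural markers summed to 24.1 to 75.1 and 33.6 to 98.4, with Myh11 at 0 in every library. Notch3 made up most of this sum, with means of 37.8 CPM in labeled and 52.8 CPM in unlabeled libraries. No other mural marker had a labeled mean above 4.57 CPM. The 8 cardiomyocyte markers summed to 1.27 to 8.37 in labeled and 2.17 to 9.04 in unlabeled libraries, with Ryr2 and Myl2 at 0, and the 8 epicardial markers to 4.44 to 7.90 and 4.02 to 4.88. The study's methods describe a depletion of CD31+ and CD45+ cells, endothelial and immune cells, when CF are isolated. In such bulk libraries fewer cells of a type and less RNA per cell cannot be told apart.

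On GRCm39, read from 5′ to 3′ on the transcript strand, the 30 bases at the polyadenylation signal of 9 members are printed with the signal in capitals, since they stand near the 3′ end of the interval on which reads were counted. The tables do not give where in an interval the reads lie. This search was added after the values were seen.
Id1, chr2:152579297-152579326, + strand: ttttttgttgttATTAAAcaaacactttag
Id2, chr12:25143802-25143831, - strand: tattaagattatAATAAAatgtgtctgaca
Id3, chr4:135872668-135872697, + strand: aacattttgcatAATAAAccatttttgaac
Id4, chr13:48419471-48419500, + strand: gcctcctgtactAATAAAtcaatcttcact
Hes1, chr16:29886581-29886610, + strand: ttgagaaaatatAATAAAagagtgaaggct
Hey1, chr3:8728424-8728453, - strand: gtgttgtgactaAATAAAaagcaaagaaca
Hey2, chr10:30708361-30708390, - strand: tatgtatcactaATTAAAtgacgtcctttt
Heyl, chr4:123143627-123143656, + strand: tacatacaaagaAATAAAattcataatttt
Bhlhe40, chr6:108643845-108643874, + strand: catgtgcctggcATTAAAaacaatattgag

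These signals ended between 16 and 24 bases before the end of the interval. The canonical AATAAA stood in the last 50 bases of Id2, Id3, Id4, Hes1, Hey1 and Heyl, and the common variant ATTAAA in those of Id1, Hey2 and Bhlhe40. Bhlhe41 held neither in its last 50 bases. Among all 40380 intervals on reference chromosomes, 53.1% held AATAAA there, 15.5% held ATTAAA and 65.5% held at least 1 of them. These shares count every interval, also very short ones and ones without reads. The members stand with 1 interval per gene chosen by reads, so the sets are not alike. All 10 intervals used were 3′ UTR sequence of the last exon. This was exon 2 of Id1, exon 3 of Id2, Id3 and Id4, exon 4 of Hes1, and exon 5 of Hey1, Hey2, Heyl, Bhlhe40 and Bhlhe41. Only the Id4 interval ran past its annotated end, by 2 of its 3077 bases. The intervals of Id3 and Bhlhe41 overlapped genes on the other strand, Gm57159 and Gm67122, and whether reads were counted by strand is not given in the sources used here.

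Id3, Id2 and Id1 held the top 3 places in the order of levels. Id3 (ENSMUSG00000007872.5, chr4:135872191-135872703, 513 bases) was the most highly read member, with 2478, 1690 and 758 reads in labeled replicates 1, 2 and 3 and with 2463 and 1180 in unlabeled replicates 1 and 2. Relative to counted reads this was 1572, 1414 and 1498 CPM with S4U and 1337 and 1185 CPM without it. Its labeled libraries lay close together, at 1495 ± 79.1 CPM (SD, n = 3), and all 3 stood above both unlabeled libraries. Its deposited CPM was 126 ± 78.0 (SD, n = 3), higher than that of 99.8% of the 20365 gene names. This deposited value differed more between the labeled libraries, at 207 in replicate 1, 119.9 in replicate 2 and 51.9 in replicate 3, and without S4U it was 169.9 and 108, with a mean of 139 that was above the labeled mean.

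Id2 (ENSMUSG00000020644.11, chr12:25143798-25144575, 778 bases) had 927, 875 and 408 reads in the labeled libraries, in the same order, and 873 and 592 in the unlabeled ones. Its level was 588, 732 and 806 CPM with S4U, and 474 and 594 CPM without it. The groups overlapped, since unlabeled replicate 2 stood just above labeled replicate 1. Id2 is the Id gene best known from lymphoid and neural cells, and it came second here, at 709 ± 111 CPM (SD, n = 3).

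Id1 (ENSMUSG00000042745.11, chr2:152578947-152579330, 384 bases) is a classic early BMP target. It had 409, 220 and 91 reads in the labeled libraries and 230 and 86 in the unlabeled ones. Its level was 259.5, 184 and 179.8 CPM with S4U and 125 and 86.3 CPM without it. Every labeled library stood above both unlabeled libraries, and the means were 208 ± 44.8 CPM (SD, n = 3) and 106 CPM (n = 2). The tables hold 3 nested intervals of Id1, of 384, 397 and 563 bases, with identical reads, and the shortest was used.

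Id4 (ENSMUSG00000021379.4, chr13:48416428-48419504, 3077 bases), an Id gene known mainly from the nervous system, was the least read of the 4. It had 155, 107 and 44 reads in the labeled and 121 and 66 in the unlabeled libraries. That made 98.3, 89.5 and 86.9 CPM with S4U and 65.7 and 66.3 CPM without it, so the groups did not overlap. The labeled mean was 91.6 ± 5.97 CPM (SD, n = 3).

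Hes1 was the most highly read of the Notch-linked members. Hes1 (ENSMUSG00000022528.10, chr16:29886247-29886614, 368 bases), a repressor known for oscillating levels in embryonic cells, had 173, 119 and 38 reads in the labeled and 132 and 91 in the unlabeled libraries. Its level was 109.8, 99.6 and 75.1 CPM with S4U and 71.6 and 91.4 CPM without it, and the groups overlapped. The mean of 94.8 ± 17.8 CPM (SD, n = 3) was within 1 SD of that of Id4.

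The Hey genes were read at low levels. Hey1 (ENSMUSG00000040289.10, chr3:8728419-8729555, 1137 bases), which acts in the endocardium and in vessels, had 22, 24 and 8 reads in the labeled and 14 and 11 in the unlabeled libraries. Its labeled levels of 14.0, 20.1 and 15.8 CPM all stood above the unlabeled ones of 7.60 and 11.04 CPM. Heyl (ENSMUSG00000032744.6, chr4:123140424-123143663, 3240 bases), known from vascular mural cells, had 24, 27 and 7 reads against 20 and 19, and its groups overlapped. Hey2 (ENSMUSG00000019789.11, chr10:30708355-30709731, 1377 bases), known from ventricular cardiomyocytes and arterial cells, had 8, 4 and 1 reads with S4U and 10 and 0 without it. The 0 reads of Hey2 in unlabeled replicate 2 mean only that it was not detectable at that depth.

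Bhlhe40 (ENSMUSG00000030103.13, chr6:108642294-108643886, 1593 bases), also called Dec1, was the only tested member with a lower mean in labeled libraries under every setting. It had 109, 43 and 28 reads with S4U and 179 and 68 without it. Its level was 69.2, 36.0 and 55.3 CPM in the labeled and 97.1 and 68.3 CPM in the unlabeled libraries, which overlapped by labeled replicate 1. Bhlhe41 (ENSMUSG00000030256.13, chr6:145803969-145808577, 4609 bases), its paralog Dec2, had 39, 22 and 10 reads against 47 and 17. Its means of 20.97 and 21.3 CPM were almost equal.

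**Figure D1:**
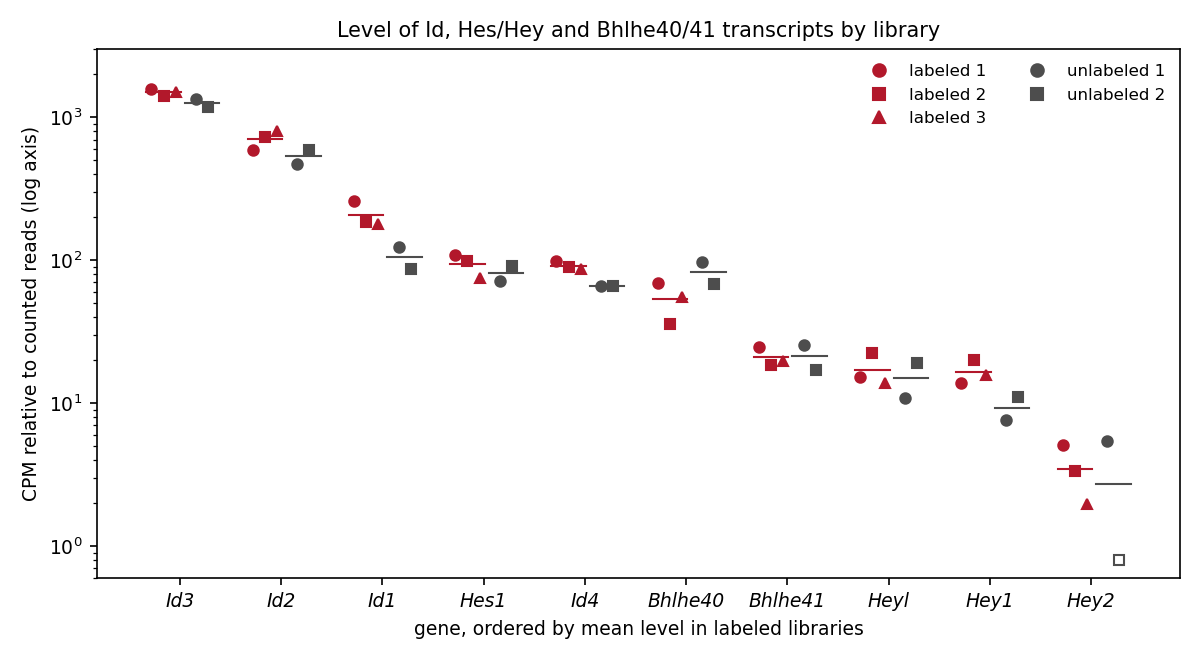
Level of each member in each library as CPM relative to counted reads, on a log axis, with red points for labeled and grey points for unlabeled libraries and short lines for group means. The open square at the foot of the Hey2 column stands for 0 reads in unlabeled replicate 2, and the labeled means run from 1495 CPM for Id3 down to 3.47 CPM for Hey2.

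In order of labeled level the members were Id3, Id2, Id1, Hes1, Id4, Bhlhe40, Bhlhe41, Heyl, Hey1 and Hey2. Neighbours were taken to differ where the gap of their means exceeded the larger of their SDs and all 3 labeled libraries gave the same order. By that description Hes1 and Id4, Bhlhe41 and Heyl, and Heyl and Hey1 did not differ beyond their spread, and the other 6 neighbouring pairs did. The gap of Id3 to Id2 was 786 CPM, more than the whole level of any other member. Bhlhe40 stood at 53.5 ± 16.7 CPM, Heyl at 17.2 ± 4.71 CPM, Hey1 at 16.6 ± 3.14 CPM and Hey2 at 3.47 ± 1.55 CPM (each SD, n = 3).

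The T>C rate asked how much of each transcript had been made in the 12 h of labeling. The rate of Id3 was 0.0370, 0.0373 and 0.0351 in labeled replicates 1, 2 and 3, from 63235, 45583 and 19971 covered T positions. In the unlabeled libraries it was 0.000351 and 0.000122. Pooled over libraries, labeling raised it 134.0-fold, with 27 conversions in 98238 unlabeled positions. Of these conversions 23 were in unlabeled replicate 1, so the fold depends on that library. Id3 also had the tightest labeled rates of the Id genes after Id2, at 0.0365 ± 0.00121 (SD, n = 3).

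Id2 had rates of 0.0374, 0.0391 and 0.0387 with S4U and of 0.00169 and 0.00113 without it. Its labeled SD of 0.000887 was below the 0.00153 that counting alone would give. Id1 had labeled rates of 0.0335, 0.0361 and 0.0426, and unlabeled ones of 0.00160 and 0.00122. The highest Id1 rate came from its shallowest library, with 2581 covered T positions and a 95% Wilson interval of 0.0355 to 0.0511. Id4 had 0.0363, 0.0318 and 0.0417 with S4U, and 0.00330 and 0.000578 without it. Intervals and limits of this kind cover counting error only, since T positions of 1 read are not independent.

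Hes1 had rates of 0.03699, 0.0365 and 0.03496 in the labeled libraries and of 0.000851 and 0.00101 in the unlabeled ones. Its labeled mean was 0.0361 ± 0.00105 (SD, n = 3), and its pooled labeled rate was 39.5 times its pooled unlabeled rate. Hey1 ranged from 0.0254 to 0.0575, on 87 to 511 covered T positions. Heyl ranged from 0.0204 to 0.0455, on 147 to 549 positions. Hey2 had 14 conversions in 349 labeled positions, a pooled rate of 0.0401 with a Wilson interval of 0.0240 to 0.0662. No conversion was counted for any Hey gene without S4U, which allows rates of up to 0.00640 for Hey1, 0.00926 for Hey2 and 0.00462 for Heyl, at 3 conversions of the covered positions over both libraries. Heyl nevertheless had 3 reads marked as carrying a conversion in unlabeled replicate 1, where its deposited count of conversions was 0.

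Bhlhe40 had labeled rates of 0.0294, 0.0387 and 0.0380. It had 0 conversions in 6536 unlabeled positions, which allows a rate of up to 0.000459. Its pooled labeled rate of 0.0332 was thus at least 72.3-fold higher. Unlabeled replicate 2 alone, with 1839 of these positions, allows a rate of up to 0.00163, which makes the bound lower. For the Hey genes the bound over both libraries was at least 4.87-fold for Hey1, 4.33-fold for Hey2 and 7.97-fold for Heyl. Bhlhe41 had labeled rates of 0.0369, 0.0454 and 0.0383, with 1 conversion in 1526 unlabeled positions.

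**Figure D2:**
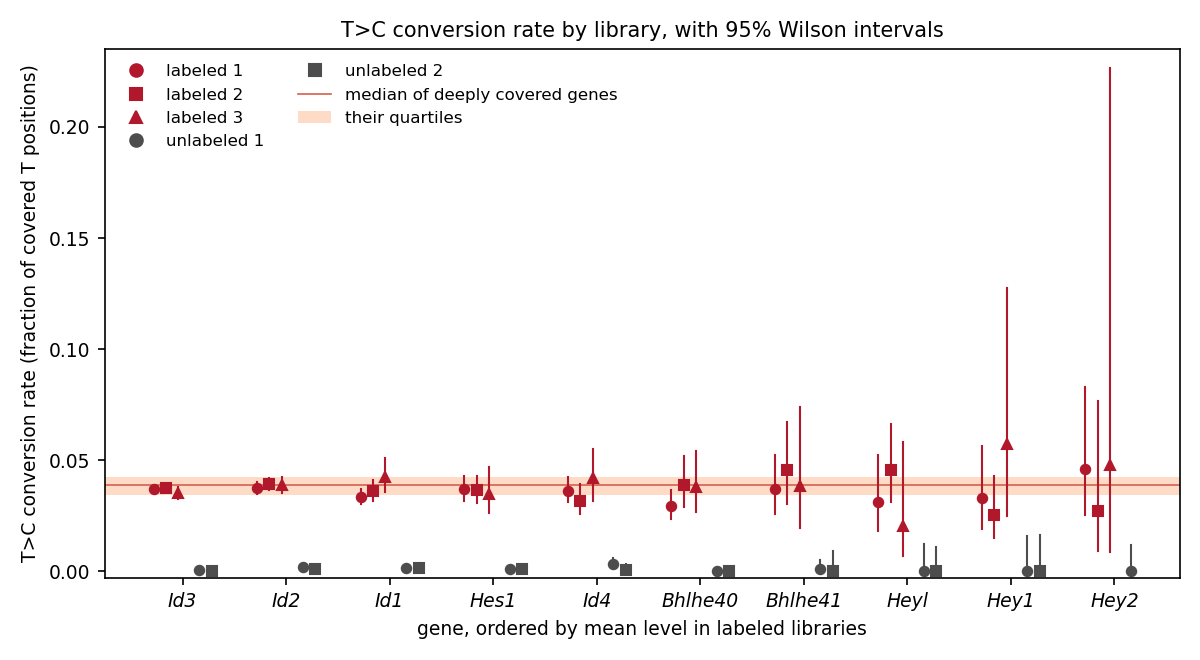
T>C conversion rate of each member in each library as a fraction of covered T positions, with 95% Wilson intervals as vertical lines, and with the median and quartiles of deeply covered genes as a line and a band. All labeled points stand above all unlabeled ones, and the intervals widen from Id3 to Hey2, which has no unlabeled 2 point because no T position was covered.

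Labeled and unlabeled rates did not overlap for any of the 10 members, as was the case for 89.5% of the 11374 genes with a covered T in each labeled and in at least 1 unlabeled library. The beta-binomial likelihood-ratio test could be run on the 9 members with a covered T in every library, and it called all 9 raised. Across all 19240 intervals tested, 94.6% were called raised in the same way. With Benjamini-Hochberg adjustment over all intervals all 9 were still called, against 94.5% of the intervals. The members thus share this call with most of the intervals that could be tested. The largest adjusted p among the 9, that of Heyl, was 0.000482 in the beta-binomial test.

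The rates of the members were close to each other. The highest mean was 0.0402 for both Hey2 and Bhlhe41, and the lowest was 0.0323 for Heyl. No neighbouring pair in the order of rates differed beyond its spread. Of all 45 pairs of members 2 did by the same description, with Id2 above Id3 by 0.00192 and above Hes1 by 0.00226 in the mean and higher in all 3 labeled libraries. For scale, 2103 genes had 1000 or more covered T positions in each of the 5 libraries. Their median rate was 0.0388, with quartiles of 0.0343 and 0.0422. Id1, Id2, Id3, Id4 and Hes1 reached that coverage, and the mean rates of all 5 lay between the lower quartile and the median. The share of these genes with a lower mean rate was 46.7% for Id2, 39.9% for Id1, 35.2% for Id4, 34.6% for Id3 and 33.1% for Hes1. The 5 Id and Hes transcripts were thus converted about as often as the middle of these genes. The lowest decile of the deeply covered genes ended at 0.0232 and the highest began at 0.0451. Rates thus lay closer together above the median than below it. Every labeled library had the same 12 h of S4U, so a place near the middle gives no lifetime, and how fast these transcripts turn over was not tested. Id2, Id3 and Hes1 had the smallest spread, with an SD of 0.000887, 0.00121 and 0.00105. The 9 fibroblast markers, given for scale, ran from 0.0112 for Dcn to 0.0414 for Pdgfra, with a median of 0.0223.

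**Figure D3:**
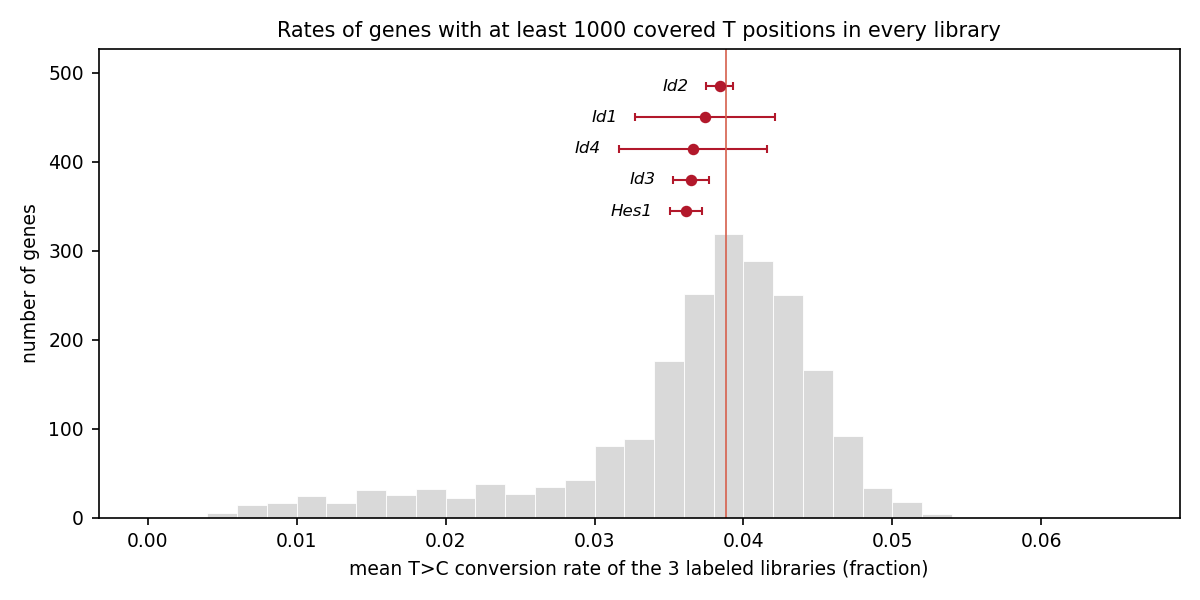
Histogram of the mean T>C rate of the 3 labeled libraries over the 2103 deeply covered genes (1000 or more covered T positions in each library), with the 5 members that reach this coverage above it (points are means, bars are SD over 3 libraries). All 5 points stand left of the median of 0.0388, which the vertical line marks, and inside the main peak.

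The share of reads that carried a conversion placed the deeply covered members differently among other genes. It was 59.7 ± 5.28% for Id1, 59.4 ± 4.04% for Id2, 58.5 ± 1.77% for Id3, 56.7 ± 2.46% for Id4 and 61.4 ± 5.25% for Hes1 (each SD, n = 3). The median over the deeply covered genes was 52.7%, so that the means of all 5 lay above the median on this scale and below it by T>C rate. In single libraries the T>C rate did not always lie below its median of 0.0388. Labeled replicate 3 of Id1 and of Id4, at 0.0426 and 0.0417, and replicate 2 of Id2, at 0.0391, lay above it. This share also depends on the T positions a read covers, which for Hes1 ran from 25.5 in labeled replicate 1 to 32.4 in labeled replicate 3. Without S4U the share was at most 8.26%, for Id4 in unlabeled replicate 1, among Id1 to Id4 and Hes1.

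Sequence elements that are known from unstable mRNAs were unevenly spread over these 3′ UTRs. The AU-rich pentamer ATTTA was found 10 times in Bhlhe41, 9 times in Id4, 4 times in Hey2, 3 times in Id2 and 1 time in Hey1. It was not found in Id1, Id3, Hes1, Heyl or Bhlhe40. Long intervals without it are uncommon, since among intervals of a length within 20% of that of Heyl 96.6% held at least 1 ATTTA, and 85.4% of those like Bhlhe40 did. For the short intervals of Id1, Id3 and Hes1 these shares were 40.6%, 49.9% and 39.0%. Searches were made on the transcript strand, and the longer element TATTTAT contains ATTTA, so that both counts include the same sites. TATTTAT was found 2 times in Id2 and 1 time in Id4, and the nonamer TTATTTATT in no member. The Pumilio-type element TGTANATA was found 4 times in Id4 and 1 time each in Id2, Hes1, Bhlhe40 and Bhlhe41. The windows show the 3 TATTTAT sites and the TGTANATA site of Hes1, the members' rarest elements and the only site in Hes1, with the element in capitals.
Id2, TATTTAT, chr12:25144353-25144382, - strand: tgtgataccgtTATTTATgagagactttca
Id2, TATTTAT, chr12:25144104-25144133, - strand: tgctgtgtataTATTTATatataaatatat
Id4, TATTTAT, chr13:48418306-48418335, + strand: tcaaagtcaaaTATTTATggggatctgaaa
Hes1, TGTANATA, chr16:29886420-29886449, + strand: tgcactgcattTGTATATAttttatatgtt

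Among deeply covered genes, the median rate was 0.0394 in the 1672 with ATTTA and 0.0345 in the 431 without it, a description with no test. These genes were not matched by interval length. ATTTA was held by 98.9% of intervals of a length like that of Bhlhe41 and by 39.0% of those like Hes1. Id2 and Id4, which hold the element, had mean rates of 0.0384 and 0.0366, and Id1, Id3 and Hes1, which do not, had 0.0374, 0.0365 and 0.0361.

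Reads with and without S4U were compared to see whether the members' levels differed between labeled and unlabeled cells. Of the 9 members that passed the filter on low counts, 8 had a positive and 1 had a negative log2 fold change, where 51.7% of all genes tested had a positive one, and none passed edgeR's test after adjustment over all 9806 genes tested. Hey2 did not pass the filter. Over all genes tested 0.00% passed as well. At an unadjusted p below 0.05 edgeR's test called 1 member, Id1, higher, where 2.85% of all genes were called higher and 3.13% lower. DESeq2 also called 0 of the 9 after adjustment, where it called 0.288% of the genes it gave an adjusted p. It gave none for Hey1, Heyl and Bhlhe41. With the replicate number as a block, edgeR called 3 of the 9, Id1 and Id4 higher and Bhlhe40 lower. That fit called 5.39% of all genes higher and 6.29% lower, and the replicate numbers are not stated to pair the cultures.

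Id1 had the largest difference of the members, a log2 fold change of 1.06 (SE 0.29, edgeR adjusted p = 0.631). Among all genes tested, 259 had a larger positive value and 116 a smaller p. Hey1 followed with 0.93 (SE 0.45), on 8 to 24 reads per labeled library, then Id4 with 0.55 (SE 0.25) and Id2 with 0.48 (SE 0.28). Id3, Heyl and Hes1 lay between 0.30 and 0.32, Bhlhe41 was at 0.05 (SE 0.36), and Bhlhe40 was at -0.55 (SE 0.35). In edgeR's test adjusted p of these 8 lay between 0.870 and 0.999. Every labeled library stood above both unlabeled libraries for Id1, Id3, Id4 and Hey1, 4 members, while 8.21% of all genes tested did so. This holds for CPM relative to counted reads only, since on the deposited CPM the groups of all 4 overlapped. For no member did every labeled library lie below both, as 13.1% of all genes did. The median log2 fold change of the 9 was 0.32, beside 0.02 over all genes tested. The sum of the fibroblast markers was also higher in every labeled library, carried by Col1a1 (13036 against 9223 CPM) and Col1a2 (11048 against 8184 CPM). Of the 9 markers, 1 had every labeled library above and 2 had every labeled library below both unlabeled ones, with Pdgfra at 521 against 782 CPM and Ddr2 at 285 against 417 CPM. The part of these markers in the differences was not tested.

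The sign of 7 of the 9 fold changes was the same under all 11 alternative settings. Heyl turned to -0.10 without unlabeled replicate 1. Bhlhe41 turned to -0.028 with library totals, to -0.09 without labeled replicate 1 and to -0.16 without unlabeled replicate 2. Over these settings Id1 lay between 0.85 and 1.29, Hey1 between 0.61 and 1.24, Id4 between 0.48 and 0.60, Id3 between 0.24 and 0.37, Id2 between 0.28 and 0.71, Hes1 between 0.09 and 0.53 and Bhlhe40 between -0.80 and -0.32. Leaving out unlabeled replicate 1 gave the low values of Hey1, Id2 and Hes1, and leaving out labeled replicate 1 or 2 gave the ends of Bhlhe40.

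**Figure D4:**
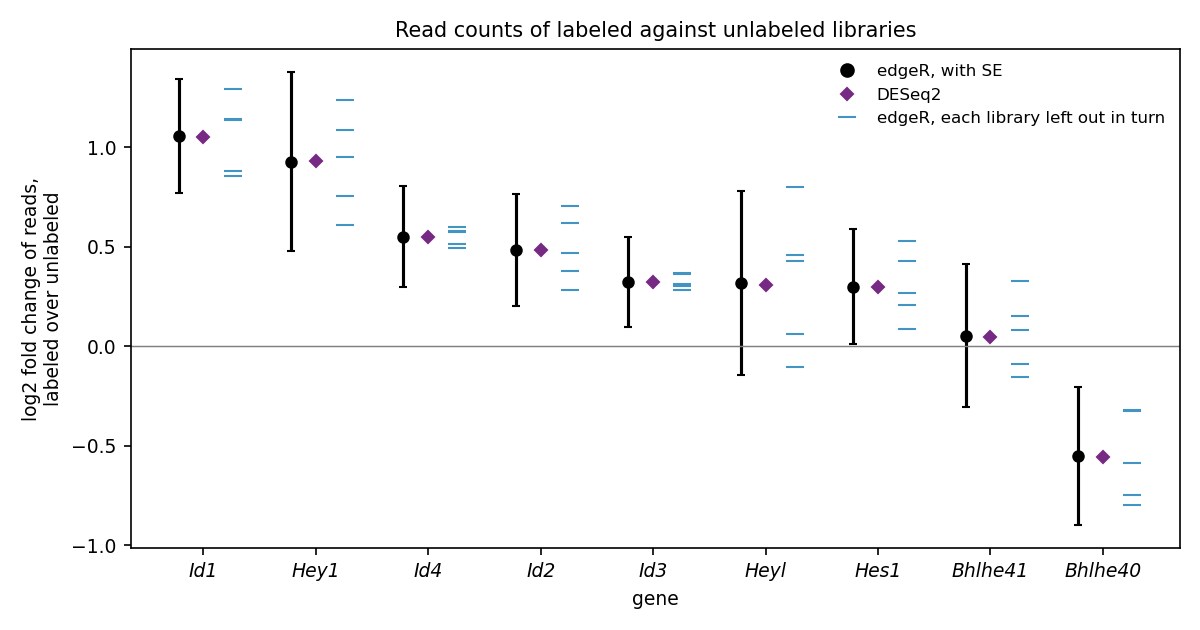
Log2 fold change of reads of labeled over unlabeled libraries for the 9 members tested, from edgeR with its SE (black), from DESeq2 (diamonds) and from edgeR with each of the 5 libraries left out in turn (blue dashes). Id1 stays above 0.8 in each of them, Heyl and Bhlhe41 cross 0, and Bhlhe40 stays below 0.

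Lists of genes linked to the members were compared in the same way. Over these lists 56 genes were tested, and neither edgeR nor DESeq2 called any after adjustment. At an unadjusted p below 0.05 edgeR called 5 of the 56, where it called 5.98% of all genes tested, and DESeq2 called 1, Smad6, where it called 4.00%.

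The partners that Id proteins bind were read in the same cells. All 3 E protein genes were tested, 0 of them were called by edgeR, and their median log2 fold change was 0.26. Tcf4 was the highest with 952 ± 259 CPM (SD, n = 3), below Id3 and above Id2 in its mean, while Tcf12 had 74.4 ± 13.4 CPM and Tcf3 41.9 ± 15.4 CPM. Their T>C rates of 0.0344, 0.0414 and 0.0393 included the range of the Id genes. Of 8 tissue-restricted bHLH factors 5 were tested and 0 were called. Tcf21, the bHLH factor that marks CF, had 720 ± 92.4 CPM, close to Id2, and a rate of 0.0386. Twist1, Hand2 and Twist2 followed with 71.0, 53.5 and 39.7 CPM, and Hand1 had no reads.

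Of 22 BMP-Smad genes, 15 were tested for reads and 0 passed edgeR's test after adjustment, with a median log2 fold change of 0.01. Smad6, the inhibitory Smad that is itself a BMP target, had the highest level of the list, 448 ± 197 CPM against 221 CPM without S4U. Its log2 fold change was 1.10 (SE 0.40, edgeR adjusted p = 0.768), close in size to that of Id1. Eng, a coreceptor, and Smad7, the other inhibitory Smad, had 446 and 358 CPM, and Bmpr2, the type II receptor, 319 CPM. Smad6 and Bmp6, a ligand, were the 2 genes of the list with an unadjusted p below 0.05, and Bmp6 was lower, with a log2 fold change of -0.66 (SE 0.28, edgeR adjusted p = 0.833).

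Of 22 Notch pathway genes, 18 were tested for reads, with 0 called after adjustment and a median log2 fold change of -0.11. At an unadjusted p below 0.05, 3 were lower in labeled libraries and none was higher, beside 3.13% lower and 2.85% higher of all genes tested. These were the ligand Dll4 at -1.31 (SE 0.51), the glycosyltransferase Lfng at -1.45 (SE 0.50) and the receptor sheddase Adam17 at -0.61 (SE 0.25), whose adjusted p in edgeR were between 0.732 and 0.810. Dll4 and Lfng were scarce, at 4.62 and 5.51 CPM in labeled libraries. The most highly read genes of the list were Adam17, Jag1, Maml2 and Adam10, with 228, 162, 157 and 152 CPM. The receptors Notch2, Notch3 and Notch1 had 77.1, 37.8 and 35.1 CPM, and Rbpj, the DNA-binding factor of the pathway, had 42.7 CPM. All were below the labeled mean of Hes1, 94.8 ± 17.8 CPM, but Notch2 was within 1 SD of it. Without S4U Notch2 was the higher, at 83.3 against 81.5 CPM.

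Of the 5 genes of the TLE family 4 were tested and 0 were called, with a median log2 fold change of -0.01. Tle5, a short family member, was the most highly read with 169.6 CPM. Its T>C rate of 0.0160 ± 0.00338 (SD, n = 3) was below those of Hes1 and the Id genes in each of their means, and 5.14% of deeply covered genes had a lower one. Of 11 clock genes 10 were tested and 0 were called, with a median of -0.02. Clock and Nr1d2 had 128 and 74.4 CPM, both above Bhlhe40, and Arntl, the dimer partner of Clock, had 30.7 CPM. Of 6 other Hes-type genes, Hes6 was tested (log2 fold change of -0.07) and not called. It was also the only one read in every labeled library, at 29.2 CPM, and Hes2, Hes5 and Helt had no reads in any library.

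The genes most like Id3 were sought over 6 values, the level and the T>C rate in each labeled library on a log2 scale, each scaled to an SD of 1 over the 2103 deeply covered genes. The nearest were Adamts5, a secreted protease, at a distance of 0.450, Ckap4, an endoplasmic reticulum protein, at 0.543, and Adm, which encodes the peptide adrenomedullin, at 0.607. Adamts5 had 1697 ± 303 CPM and a rate of 0.0390, Ckap4 had 1197 ± 96.4 CPM and 0.0346, and Adm had 1221 ± 159 CPM and 0.0339 (SD, n = 3).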

How the data were processed

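CF libraries were prepared by the authors with a 3′ end kit that reads the transcript strand, sequenced single-end, mapped to mm39 with SLAM-DUNK 0.4.3 (version per the submitters' processing notes) and freed of duplicates by UMI. The deposited counts per 3′ interval are reads, reads with a conversion, covered T positions and conversions, and they are raw. The conversion rate deposited beside them is a fraction of the covered T positions. As deposited, CPM scales the reads of an interval to a library-wide number that exceeds the reads counted.

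Repeated rows were used once, which left 40428 of 97442. The T content of 40380 of 40380 intervals on reference chromosomes matched GRCm39, whose annotation gave exons and overlapping genes. Where intervals tied in CPM the shortest was used. Samples were grouped by the labels as labeled (n = 3) and unlabeled (n = 2). The study's methods give 3 CF preparations for SLAMseq and controls incubated in parallel, but neither they nor the labels tie a library to a preparation, so p-values measure the spread between these libraries.

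Rates were compared with a two-sided likelihood-ratio test of a beta-binomial model (overdispersion shared by both groups, chi-square, 1 degree of freedom), called at p below 0.05 without adjustment. Read counts were compared with edgeR 4.0.16 (quasi-likelihood, TMM, filterByExpr, Benjamini-Hochberg over all genes). Alternatives used DESeq2 1.42.0, limma 3.58.1, other scalings and filters, the replicate number as a block, summed intervals and each library left out. Scripts ran in R 4.3.3 and in Python 3.11.15 (with scipy 1.17.1 and pandas 2.3.3, among others), and tests were tried on simulated data.

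The members and the lists were chosen with earlier results of these data known. Named genes were all members, up to 4 genes of each list with the highest labeled CPM, list genes with an unadjusted p below 0.05, and the 3 genes nearest to Id3. Notch1, Notch2, Notch3, Rbpj, Dcn, Col1a1, Col1a2, Pdgfra, Ddr2, markers at 0 and list genes without reads were named after their values were seen. Bmal1 was matched to Arntl through RefSeq synonyms.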

Additional observations from a re-analysis of the deposited data

How the results depend on the processing

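The 9 members tested kept a raised T>C rate with Benjamini-Hochberg adjustment and with limma on the log2 odds, with and without the replicate block. Keeping 1 interval per gene leaves each member's unadjusted test unchanged, so that setting was no separate check. With 100 or more covered T positions in each library, 8 of 8 were raised. With each library left out in turn 9 to 10 were raised, where 10 includes Hey2, which can be tested without unlabeled replicate 2.

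For reads, edgeR with the replicate block called 3 of 9 members where the unblocked test called 0. These were Id1 (log2 fold change of 1.13, adjusted p = 2.71e-09) and Id4 (0.57, adjusted p = 0.0336), higher, and Bhlhe40 (-0.59, adjusted p = 0.0385), lower, while 5.39% of all genes were called higher and 6.29% lower. The replicate numbers are not stated to pair the cultures. Deviations from the group means correlated at 0.784 for number 1, 0.638 for number 2, and 0.482 between labeled replicate 3, which has no partner, and unlabeled replicate 2. With 2 unlabeled libraries their deviations are exact opposites, and deviations of the labeled ones sum to 0, so these values are not independent. Each other setting, and each library left out, called 0. With each library left out in turn, Heyl ran from -0.10 (without unlabeled replicate 1) to 0.80 and Bhlhe41 from -0.16 (without unlabeled replicate 2) through -0.09 (without labeled replicate 1) to 0.33, and with library totals Bhlhe41 was at -0.028. The cause of these reversals was not tested.

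Relative to counted reads instead of the deposited denominator, the level of 0 of 10 members stayed within 1 SD of its deposited CPM, since the scale itself changes. Summing intervals kept 8 of 10, as Id1 and Bhlhe41 have nested intervals that count the same reads again. Subtracting the unlabeled rate moved the T>C rate of Id2 alone by more than 1 SD, to 0.0370. Depth limits Hey1, Hey2 and Heyl most, with 1 to 27 reads per labeled library, and with 3 libraries against 2 an exact permutation test cannot go below p = 0.1.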
